A study of Mus musculus with 14 samples.

Results

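The hairpins described here are the microRNA (miRNA) genes of the mouse Hox clusters, of the miR-10 and miR-196 families with mir-615. They were chosen by name: of the 6 hairpins mir-10a, mir-10b, mir-196a-1, mir-196a-2, mir-196b and mir-615, the deposited table analysed here has rows for 3, named mmu-mir-10a, mmu-mir-10b and mmu-mir-196b there, out of 539 hairpins in all. The other 3 were not analysed here. The study sequenced small RNA from exosomes, small vesicles that carry miRNAs between cells, which were released in culture by adipose tissue macrophages of C57BL/6 mice, sorted as CD11b+F4/80+ cells. There were 7 obese and 7 lean libraries by their labels, and the cells of both groups were kept for 72 h in IMDM with 10% exosome-free serum. The sources used here give neither diet nor sex. Age is labelled as a range that starts at 24 weeks and ends between 26 and 32 weeks for obese samples and between 33 and 39 weeks for lean ones, with 1 week more for each next sample listed. Steps this regular, in order of listing, may be an entry error, and the files do not show whether the ages are true. If those labels hold, the effects of age and of obesity cannot be told apart. Separate animals per library are not stated, and p-values then measure only the spread between these samples, which may be technical.

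The values come from the authors' deposited table, which gives for each hairpin a log2 fold change between the groups, a mean log2 expression over the libraries and a p-value. It holds 0 columns of values for single libraries, so the total count per library, the level in each group and any overlap between the groups are unknown here. Each row stands for a hairpin, so reads of its 5p and 3p arms cannot be told apart. The numerator of the fold changes is not named. A published report on such exosomes, which is no part of these data, found more miR-155 in those of obese animals. The hairpin mir-155 stands at 4.41 in the authors' deposited table, so a positive log2 fold change is read below as higher in the obese group, on condition that this outside report holds for these libraries. In such bulk material, fewer vesicles from one kind of cell and fewer copies of a miRNA per vesicle cannot be told apart.

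A miRNA pairs with messenger RNAs mainly through its seed, the bases 2 to 8 from its 5′ end, and lowers their translation or stability. The miR-10 and miR-196 genes lie inside the Hox clusters, whose transcription factors set position along the body axis, and several Hox messenger RNAs are among their known targets. In mouse T cells miR-10a is induced by retinoic acid, and in human endothelial cells it holds down inflammatory NF-κB signalling. In mouse white fat miR-196a represses Hoxc8 and favours brown-like fat cells, and miR-196b is known from blood progenitors and from leukaemias with high HOXA expression.

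The 5p arms are shown with the seed in capitals, since they show which hairpins could act on the same sites and which reads could be confused. They were taken from RefSeq (GRCm38.p6), where all 3 hairpins and 473 of the 539 rows were found by symbol.
miR-10a-5p: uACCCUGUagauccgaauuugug
miR-10b-5p: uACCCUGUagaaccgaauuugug
miR-196b-5p: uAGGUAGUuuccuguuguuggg
miR-99a-5p: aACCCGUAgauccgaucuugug
miR-99b-5p: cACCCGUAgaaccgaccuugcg
miR-100-5p: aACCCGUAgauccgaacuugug
miR-125a-5p: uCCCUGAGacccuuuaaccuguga
miR-125b-5p: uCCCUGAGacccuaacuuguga
With positions counted from 1 at the 5′ end, miR-10a-5p and miR-10b-5p differ by 1 substitution in 23 bases, U12A, outside the seed. Among 1679 mature mouse miRNA names in the RefSeq table, these 2 alone carry the seed ACCCUGU. The next sequence to miR-10a-5p is miR-100-5p at 3 edits (a changed, inserted or deleted base each), followed by miR-99a-5p at 4. The miR-99 and miR-100 arms lack 1 U of the miR-10 seed and share the seed ACCCGUA instead, while the miR-125 arms share CCCUGAG. The seed AGGUAGU of miR-196b-5p is held by miR-196a-5p as well, from which it differs by 1 edit. The nearest other miRNA to miR-196b-5p is 8 edits away. The let-7 miRNAs carry similar letters at their 5′ end, and the longest run that miR-196b-5p shares with let-7a-5p is 7 bases.

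The hairpins of the 3 genes are shown with their 5p and 3p arms in capitals, because a table row sums whatever reads were assigned to the whole hairpin.
mir-10a: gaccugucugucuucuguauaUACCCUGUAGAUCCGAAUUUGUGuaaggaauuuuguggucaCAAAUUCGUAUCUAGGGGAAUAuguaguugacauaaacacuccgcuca
mir-10b: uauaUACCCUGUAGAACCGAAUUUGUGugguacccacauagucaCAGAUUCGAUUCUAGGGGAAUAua
mir-196b: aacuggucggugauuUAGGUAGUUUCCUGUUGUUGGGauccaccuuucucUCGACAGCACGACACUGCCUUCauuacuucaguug
The 3p arms of mir-10a and mir-10b differ at 3 of 22 positions, A3G, U9A and A10U, the first of them in the seed. A read of the 5p arm is therefore assigned to one of the pair by a single base, and a read of the 3p arm by up to 3. How the authors treated reads that match both hairpins, or that carry a mismatch, is not stated in the sources used here, and its part in the mir-10b row was not tested.

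The 3 genes lie in 3 different Hox clusters. The hairpin mir-10a (ENSMUSG00000065519.1) is at chr11:96317165-96317274 on the plus strand of GRCm38, between genes of the Hoxb cluster. GENCODE M21 annotates no other gene over it, and its nearest Hox gene is Hoxb4, 992 bases downstream, with Hoxb5 at 11043 bases upstream. The hairpin mir-10b (ENSMUSG00000065500.3) is at chr2:74726070-74726137 on the plus strand, in introns of Hoxd4 and Hoxd3. It is spanned by 2 of 3 annotated Hoxd4 transcripts and by 1 of 6 Hoxd3 transcripts, and overlaps no exon of either gene. The hairpin mir-196b (ENSMUSG00000065443.1) is at chr6:52230081-52230165 on the minus strand, within Hoxa9, where it overlaps an exon in 2 of 5 annotated transcripts. The next Hox gene upstream of mir-196b is Hoxa10, at 1031 bases.

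**Figure D1:**
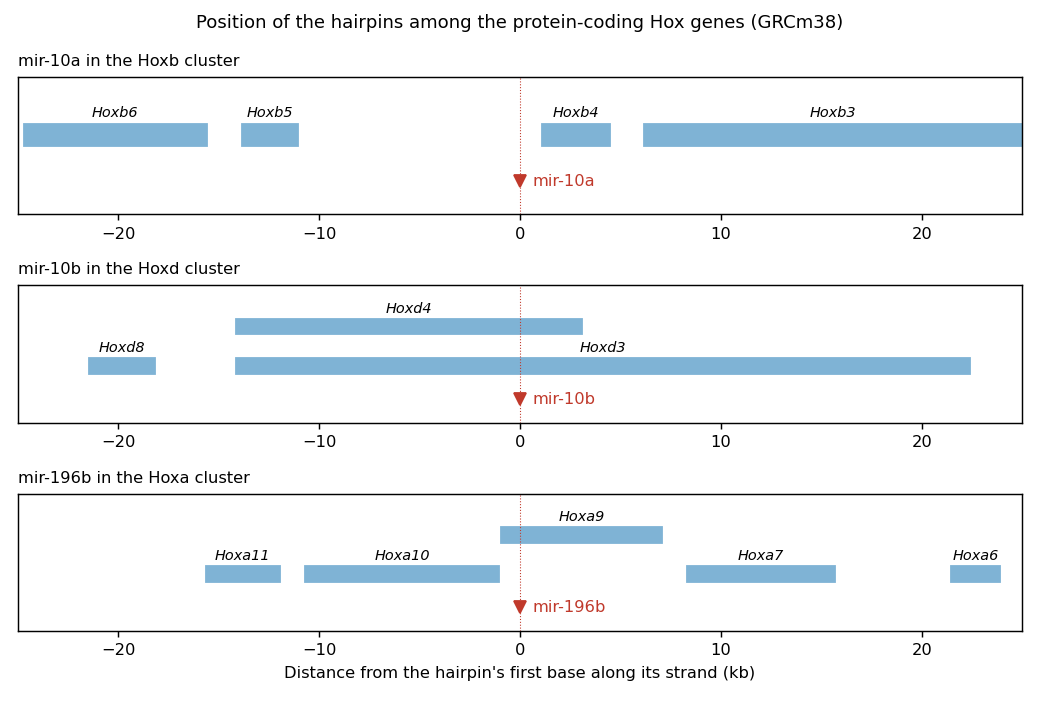
Map of the protein-coding Hox genes within 25 kb of each hairpin, drawn from GENCODE M21. The x axis gives the distance in kb from the first base of the hairpin along its own strand, blue bars are genes, cut off at the edge of the window, and the red triangle marks the start of the hairpin. mir-10a lies between Hoxb5 and Hoxb4, mir-10b within Hoxd4 and Hoxd3, and mir-196b within Hoxa9.

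The levels of the 3 hairpins ran from near the top of the table to below its median. The mean log2 expression of mir-10a was 15.65 in the authors' deposited table, the second highest of 539 hairpins. Only mir-191, at 15.69 in the authors' deposited table, was above it, and the gap of 0.04 on the log2 scale cannot be weighed because the table gives no error for a mean. The mean log2 expression of mir-10b was 9.94 in the authors' deposited table, rank 67, among the 180 most abundant. For mir-196b it was 1.11 in the authors' deposited table, rank 345 and under the median of 2.34 over all hairpins. The mature arms of all 3 are 22 or 23 bases long, so these levels were compared without a correction for length. Computed from the authors' deposited table, mir-10a was 5.71 above mir-10b on the log2 scale, a ratio of 52.3, with 64 other hairpins between them. The difference between mir-10b and mir-196b was 8.83 on the log2 scale, a ratio of 455. Both ratios come from means of log2 values, not from means of linear levels. The level of mir-196b is low in a table whose lowest mean is −0.92, and the error of the ratio of 455 is unknown. Of the hairpins that carry the miR-10 seed, mir-10a was thus by far the more abundant in these exosomes.

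The hairpins nearest in mean log2 expression were taken as those most like each of the 3, since no values per library allow a likeness across samples. Beside mir-10a in the authors' deposited table stood mir-191 above it and, below it, mir-27b at 15.09, mir-22 at 15.02 and mir-21a at 14.94. The miRNAs miR-22 and miR-21a are abundant in many cell types, myeloid cells included. Beside mir-10b in the authors' deposited table stood mir-6236, mir-192 and mir-484 above it, from 10.03 to 10.11, and mir-26b, mir-30f and mir-30e below it, from 9.82 to 9.89. Beside mir-196b stood mir-204, mir-7011 and mir-382 above it and mir-6928, mir-466k and mir-6948 below it, all between 1.06 and 1.15 in the authors' deposited table. None of these 16 neighbours was called between the groups in the authors' deposited table, at adjusted p-values from 0.107 to 0.973.

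The level of mir-10a was set beside miRNAs that mark cell types. The mean log2 expression of the 6 myeloid and leukocyte marker hairpins ran from 4.17 for mir-511 to 14.94 for mir-21a in the authors' deposited table. All 6 lay below mir-10a, as would any list without mir-191, the only hairpin above mir-10a. The myeloid marker mir-223 was at 7.62 in the authors' deposited table, 8.02 below mir-10a on the log2 scale, and the leukocyte marker mir-142a was at 9.70, close to mir-10b. Endothelial and stromal cells of the trunk are also known to make miR-10. The 2 endothelial hairpins, mir-126a and mir-126b, had means of 6.46 and 5.91 in the authors' deposited table, at least 9.19 below mir-10a on the log2 scale. The 6 mesenchymal and stromal hairpins ran from 0.22 for mir-145a to 6.59 for mir-199a-1 in the authors' deposited table. The 4 adipocyte hairpins ran from 0.97 for mir-193b to 14.04 for mir-378a in the authors' deposited table. The 3 erythrocyte hairpins lay between 6.76 and 11.84 there, the 3 lymphocyte hairpins between 3.24 and 12.66, the 5 epithelial ones between 0.60 and 3.62, and mir-122 of liver and serum at 2.15. Between obese and lean, none of the endothelial and stromal hairpins was called in the authors' deposited table, and their log2 fold changes ran from −0.18 to 0.01 and from −1.33 to 1.21. The 95% intervals of the endothelial hairpins were wide, from −4.01 to 4.04 for mir-126a and from −4.08 to 3.73 for mir-126b. A large difference in either direction was thus not detectable for them, and these estimates do not show equal levels in the groups. Of the 6 myeloid and leukocyte hairpins 2 were called, in opposite directions, with log2 fold changes of 4.41 for mir-155 and −4.70 for mir-511 in the authors' deposited table. Of the 3 lymphocyte hairpins 2 were called, mir-181a-1 at 2.57 and mir-181a-2 at 2.58 in the authors' deposited table, and these copies can share reads. The remaining lymphocyte hairpin, mir-150, was not called, at 0.59 with a 95% interval from −2.49 to 3.67, so its direction is not shown. Of the 4 adipocyte hairpins only mir-365-2 was called, at −3.75 in the authors' deposited table. The others were at 0.98 for mir-365-1, 0.02 for mir-378a and −0.56 for mir-193b there, so the list did not move together. By name mir-365-1 and mir-365-2 are copies, so these rows may not be separate markers, and their fold changes differed in sign. None of the 3 erythrocyte and 5 epithelial hairpins was called, nor was mir-122. Hairpins listed for the labelled cell type were thus found together with hairpins listed for other cells. The lists are not exclusive, as miR-21a is abundant in many cell types, so these levels do not show which cells were present. The part of other cells in the miR-10 levels was not tested.

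**Figure D2:**
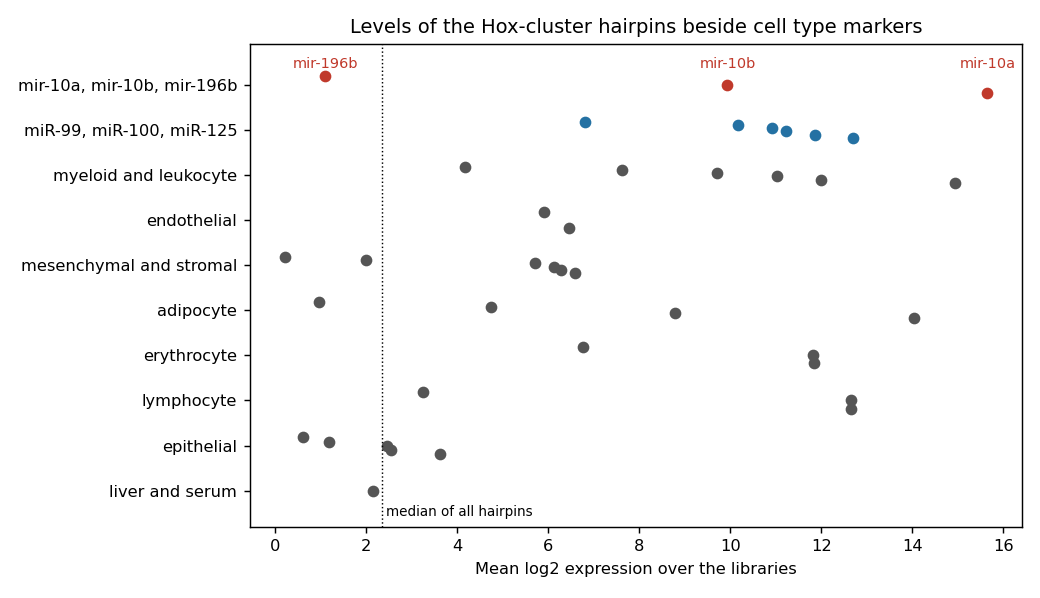
Mean log2 expression over the libraries (x axis) of mir-10a, mir-10b and mir-196b in red, of the miR-99, miR-100 and miR-125 hairpins in blue and of cell type marker lists in grey. Each point is 1 hairpin, the vertical offset within a row only separates points, and the dotted line is the median of all 539 hairpins at 2.34. mir-10a at 15.65 lies to the right of every marker shown, and mir-196b at 1.11 lies left of the median.

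The comparison asks which miRNAs differ between exosomes of obese and lean macrophages. None of the 3 Hox-cluster hairpins was called at an adjusted p under 0.05 in the authors' limma fit (0 of 3), against 5.57% of all 539 hairpins (2.04% on the positive and 3.53% on the negative side), and none had an unadjusted p under 0.05, against 17.6% of all hairpins. No other tool could be run without values per library. All 3 had a positive log2 fold change, as had 52.7% of all hairpins and 67.8% of the 180 most abundant. Their median was 0.45, beside 0.09 over all hairpins and 0.34 over the 180 most abundant.

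The log2 fold change of mir-10a was 0.96 in the authors' deposited table, where its adjusted p was 0.621. Dividing by the deposited t gave a standard error of 0.90, and the 95% interval ran from −0.93 to 2.85. On the linear scale this is 1.95-fold, with an interval from 0.525-fold to 7.21-fold. A level several times higher in the obese group and one well below the lean group both lie within this error. The smallest absolute t among called hairpins was 3.53, and at the error of mir-10a that t corresponds to a log2 fold change of 3.18.

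The log2 fold change of mir-10b was 0.45 in the authors' deposited table (adjusted p = 0.899). Its standard error was 1.0 and its 95% interval ran from −1.65 to 2.55, or from 0.320-fold to 5.84-fold. The intervals of mir-10a and mir-10b cover each other's estimate. The difference of 0.51 between the log2 fold changes of mir-10a and mir-10b was not tested, because the table does not give how these rows vary together across libraries.

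The log2 fold change of mir-196b was 0.40 in the authors' deposited table (adjusted p = 0.946). Its standard error of 1.89 was among the largest of the table, at rank 533 of 539 counted from the smallest, and its 95% interval ran from −3.58 to 4.37. That interval spans 0.0836-fold to 20.7-fold, so a difference of 10-fold in either direction was not detectable for mir-196b. For comparison, the median standard error was 0.76 among the 180 most abundant hairpins, which include mir-10a and mir-10b, and 1.10 among the next 179, which include mir-196b. The errors of all 3 hairpins were thus above the median of hairpins of like abundance.

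**Figure D3:**
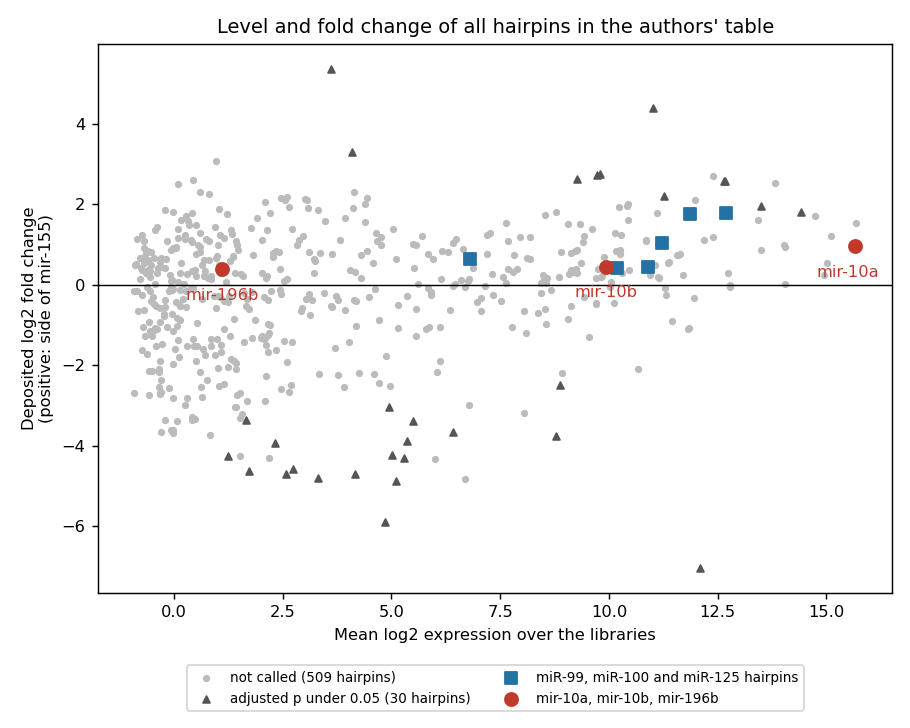
Deposited log2 fold change (y axis, positive on the side of mir-155) against mean log2 expression (x axis) for all 539 hairpins, 1 point each. Triangles mark the 30 hairpins with an adjusted p under 0.05. mir-10a (0.96), mir-10b (0.45) and mir-196b (0.40), in red, lie close above 0 and among hairpins that were not called.

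The position of the zero line depends on the scaling between libraries, which the sources used here do not state. After recentring by the median over all hairpins, 0.09, the log2 fold changes were 0.87 for mir-10a, 0.36 for mir-10b and 0.30 for mir-196b. After recentring by 0.34, the median of the 180 hairpins with the highest means, they were 0.62 for mir-10a, 0.11 for mir-10b and 0.06 for mir-196b. The sign stayed positive for all 3 under both recentrings, and no adjusted p fell under 0.678. Over all 539 hairpins the deposited table has 11 positive and 19 negative calls, and the recentring by 0.34 gave 8 positive and 25 negative calls.

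The miR-99, miR-100 and miR-125 hairpins are counted with miR-10 as one superfamily by sequence, and all 6 were in the table. The miR-99 and miR-100 miRNAs are known to target mTOR in human cells, and miR-125 miRNAs act in blood cell development. None of the 6 was called at an adjusted p under 0.05, against 5.57% of all hairpins. An unadjusted p under 0.05 was found for 2 of 6, mir-99b and mir-125a, against 17.6% of all hairpins. Among the 180 most abundant hairpins, 16 were called and 44 had an unadjusted p under 0.05 in the authors' limma fit. All 6 had a positive log2 fold change, beside 67.8% of the 180 most abundant hairpins, to which they all belong. They lie in pairs, mir-99b with mir-125a on chromosome 17, mir-99a with mir-125b-2 on chromosome 16 and mir-100 with mir-125b-1 on chromosome 9. The 6 signs may therefore not be separate evidence. The median of the 6 was 0.85. All stayed positive under both recentrings, as they had to, since the lowest deposited value, 0.42, exceeds both medians. The largest was that of mir-99b, 1.79 (95% interval 0.48 to 3.10, adjusted p = 0.115) at a mean log2 expression of 12.69 in the authors' deposited table. Its neighbour on chromosome 17, mir-125a, had 1.77 (interval 0.02 to 3.52, adjusted p = 0.276) at a mean log2 expression of 11.87 in the authors' deposited table. After recentring, the interval of mir-125a included 0, from −0.08 to 3.42 with the median of all hairpins and from −0.32 to 3.18 with that of the 180 most abundant. The log2 fold changes of mir-99a, mir-100, mir-125b-1 and mir-125b-2 ran from 0.42 to 1.05 in the authors' deposited table, with intervals that include 0. The mature sequence of mir-125b-1 and mir-125b-2 is the same on the 5p arm, so those rows can share reads and are not separate evidence.

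The level of miR-100, the sequence closest to miR-10a-5p outside the pair, was far lower. The mean log2 expression of mir-100 was 6.81 in the authors' deposited table, 8.83 below mir-10a on the log2 scale. The other 5 relatives lay between 10.18 and 12.69 in the authors' deposited table, all above mir-10b and all below mir-10a.

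**Figure D4:**
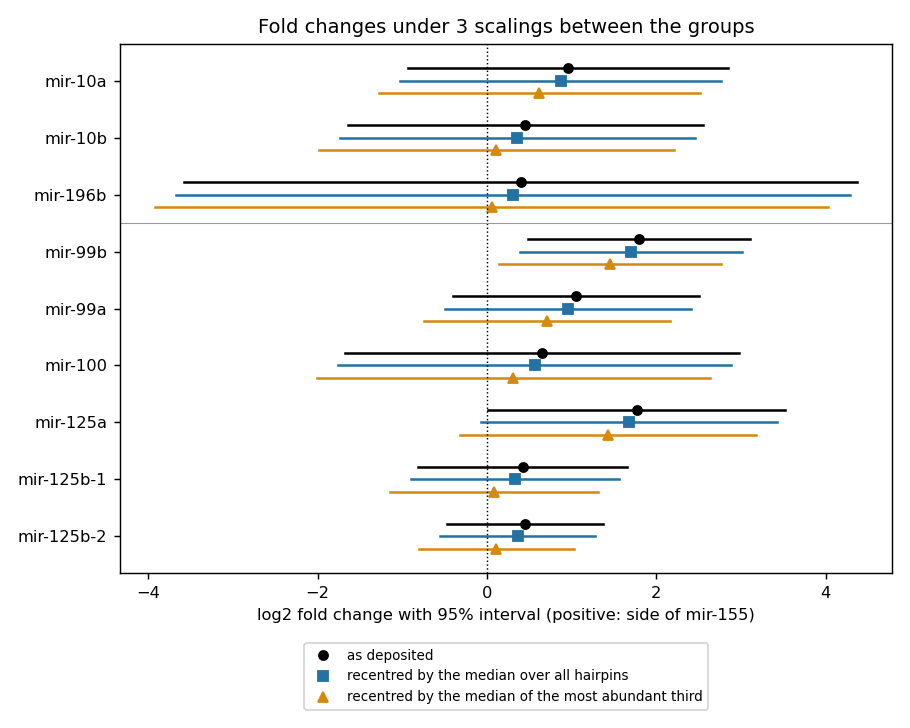
Log2 fold change (x axis, positive on the side of mir-155) with its 95% interval for mir-10a, mir-10b and mir-196b (above the grey line) and the 6 miR-99, miR-100 and miR-125 hairpins (below it). Symbols give the deposited value and those after recentring by 0.09 and 0.34. The intervals of mir-10a, mir-10b and mir-196b include 0 under each scaling, while that of mir-99b lies above 0 under each.

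To show what the seeds could pair with, the longest annotated 3′ UTR of each of 20919 protein-coding genes (GENCODE M21) was searched on the messenger strand for the 7 letters that pair with each seed. The miR-10 letters ACAGGGT were found in 12.6% of these genes, Hoxb3 among them. The miR-196 letters ACTACCT were found in 6.13%. The median length of the 3′ UTRs searched was 967 bases. One site of each family is shown 5′ to 3′, with the bases that face the seed in capitals.
Hoxb3 site for miR-10: tgacttaacgtgaaaACAGGGTa
Hoxb8 site for miR-196: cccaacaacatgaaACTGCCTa
The first is at chr11:96347287-96347309 on the plus strand of GRCm38, in the gene next but one to mir-10a, and faces the whole seed shared by miR-10a and miR-10b. Over the 23 bases it forms 10 Watson-Crick pairs with miR-10a-5p in an ungapped alignment. The second, at chr11:96284888-96284909 on the plus strand, is the site at which miR-196 is known to direct cleavage of Hoxb8 in mouse embryos. It forms 21 Watson-Crick pairs and 1 G-U pair with the 22 bases of miR-196a-5p, and 20 Watson-Crick pairs and 1 G-U pair with miR-196b-5p. Since 1 of the 7 seed pairs is a G-U pair there, Hoxb8 is not among the genes counted for ACTACCT. The data hold no messenger RNA, so these matches describe sequence only.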

How the data were processed

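Small RNA libraries were compared between exosomes of obese and lean adipose tissue macrophages. Tools named in the submitters' processing notes, with no role, are limma, edgeR, Novoalign, Trimmomatic 0.30, MultiQC and FastQC. Normalization, filters, genome build and annotation are not stated there. Per the file headers, the deposited table has the columns of a limma result. Deposited fold changes and means are log2 values. The authors' moderated t is a score, their p-values come unadjusted and adjusted, and B, a natural log of odds in the deposited table, was not used.

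The planned fit on libraries was replaced by the deposited limma results, since there are no values per library; depth is therefore unknown and no counting interval was given. The deposited adjusted p equalled a Benjamini-Hochberg adjustment over 539 rows (largest difference 1.46e-14). Degrees of freedom (17.9) were recovered from t and p, the ratio of log2 fold change to t was taken as the standard error, and 95% intervals use both (Python 3.11.15, scipy 1.17.1). These steps were tested on simulated data. The 3 rows were taken by name, relatives and marker lists from fixed lists, and neighbours as the nearest 3 rows on each side in mean expression (mir-10a has 1 above); mir-155 gives the direction. Members and lists were chosen with earlier results of these data known. Sequences are from RefSeq, positions from GENCODE M21 (GRCm38).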

Additional observations from a re-analysis of the deposited data

How the results depend on the processing

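The hairpins mir-10a and mir-10b were not called under any of the 5 settings tried. They were recentring by either median, dropping hairpins under a mean log2 expression of 3.32, an adjusted p under 0.1, and an added 2-fold minimum. The same held for mir-196b under the 4 that apply, since it lies under the expression minimum. Only the recentrings alter the fold changes. Both medians, 0.09 and 0.34, were positive and lay below the 3 deposited fold changes. The recentrings could therefore neither reverse a sign nor add a call for these 3. The 2-fold minimum can only remove calls. At the 0.1 cut the outcome was fixed by the deposited adjusted p-values, the lowest of the 3 being 0.621. With the expression minimum an adjusted p cannot fall below the unadjusted limma p, which was 0.30 for mir-10a and 0.657 for mir-10b. None of these settings could thus have produced a call for the 3 hairpins. The count of all called hairpins, 30 as deposited, ran from 29 to 45; with the expression minimum there were 16 positive and 16 negative calls. No paired analysis was possible because single libraries have no values in the deposited table. Leaving out each replicate in turn was not run for the same reason. The error of each hairpin limits what could be called, mir-196b most of the 3.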
